A study of Danio rerio with 12 samples.

Results

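The proteasome genes of zebrafish larvae are described here after exposure to silver as a salt or as particles. Members were taken by name: a gene belonged if its symbol in the array's annotation began with psma, psmb, psmc, psmd, psme, psmf or psmg followed by a digit, and its probes were averaged. This gave 52 genes, read by 111 probes, of 28497 genes and unnamed probes in all, and 16 of the 52 had 1 probe. Values on enough arrays for a test were there for 50 genes. Of these, 49 encode parts, regulators or assembly factors of the proteasome, while psmc3ip matched by its letters alone: its product binds the base subunit Psmc3 and serves meiotic recombination. The genes not tested were psmb11b, with values between -0.068 and 0.13 on 6 of 12 arrays, and psmb13a, with values between -0.19 and 0.081 on 8.

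The proteasome is a barrel-shaped protease that breaks down proteins tagged with ubiquitin. Its core particle is built of rings of alpha subunits, which gate the entrance, around rings of beta subunits, some of which cut peptide bonds. A regulatory particle, made of a base with a ring of ATPases and a lid that removes ubiquitin, unfolds substrates and feeds them into the core. In immune cells and under interferon, immune beta subunits replace the cutting subunits and the activator Psme1 with Psme2 can cap the barrel, which favours peptides for class I antigen presentation. Cells that lose proteasome capacity raise most subunit genes together through the transcription factor Nrf1 (nfe2l1), as known from mammalian cells.

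The larvae were wild-type fish of the AB strain, 21 days old, kept in tanks from 6 days post fertilization for 15 days. They received silver nitrate (AgNO3) at 0.01 mg/L, silver nanoparticles (AgNPs) at 0.01 mg/L, or no silver. The labels name conditioned water with methylene blue for the controls and do not say whether the exposed tanks had the dye too. RNA of whole larvae was compared on 12 arrays of 2 colours, on which exposed and control RNA, each with its own dye, bind the same probes: 6 with AgNO3 and 6 with AgNPs larvae, each against control larvae. Each of the 6 control samples, as read from the sample codes, served 1 array of each silver form, so both comparisons share their controls. The sources used here give neither the number of tanks nor the larvae pooled per sample, so each p-value reflects the spread between these samples alone.

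Each value is a log2 ratio of exposed over control larvae, so 0 means equal signal and a negative value a lower signal in exposed larvae. For replicates 1 to 3 of each group, with exposed RNA in Cy5, this direction is likely but not settled. It follows the usual order of Cy5 over Cy3, and the opposite order would turn each sign given here. Values of the dye-swapped arrays, replicates 4 to 6 of each group, were used as deposited, as if already turned to the same direction, which is also not settled. Left unturned in the order of Cy5 over Cy3, they would be ratios of control over exposed larvae. Ratios carry no level, so markers of the labelled tissue could not be checked for presence, and genes cannot be ranked by abundance. In whole larvae, fewer cells of a type and less RNA per cell cannot be told apart. AgNPs replicates 3 to 6 had a narrow spread of values (interquartile range 0.0946 to 0.116 over all probes), while AgNPs replicates 1 and 2 had 0.293 and 0.233 and the AgNO3 arrays ranged between 0.216 and 0.342.

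In AgNO3 larvae, 37 of 50 proteasome genes (74.0%) had an estimate below 0, with a median log2 ratio of -0.087, against 51.8% of 25264 tested features and a median of -0.0056. The lower values ran through the ATPases of the base, the lid and most core genes, and were fewer among the assembly factors. None was called: 0 of 50 members passed an adjusted p of 0.05 in limma (smallest adjusted p = 0.288, for psmc2), and 0.0119% of all features did, 3 in number. At an unadjusted p under 0.05, 10 members were lower (20%), against 4.71% of all features, and 1 was higher (2.0%), against 3.54%. The 10 were psma5, psma8, psmb4, psmb5, psmc2, psmc3, psmd8, psmd11a, psme1 and psme2, and the 1 was psmd5. On all 6 AgNO3 arrays, 5 members were below 0, psma5, psmb3, psmc2, psme1 and psme2 (10%, against 2.83% of all features), and 0 were above 0 (against 2.25%). Genes on 1 array share its RNA, so these shares describe the members and are not tested. With the dye-swapped arrays turned, 32 of 50 members were below 0, against 48.0% of all features, and 6 of 50 were lower at an unadjusted p under 0.05, against 5.38% of all features. The estimates of psmc2 (0.088), psmb5 (0.040) and psmd8 (0.17) then changed sign. So turned, psma6a and psmd4b were below 0 on all 6 AgNO3 arrays (4.0%, against 3.7% of all features). None of the 5 named above could be, since turning reverses the sign of replicates 4 to 6. With arrays scaled to a common spread, 37 of 50 members were below 0, against 52.1% of all features, and 4 of 50 were lower at that p, against 2.84% of all features.

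**Figure D1:**
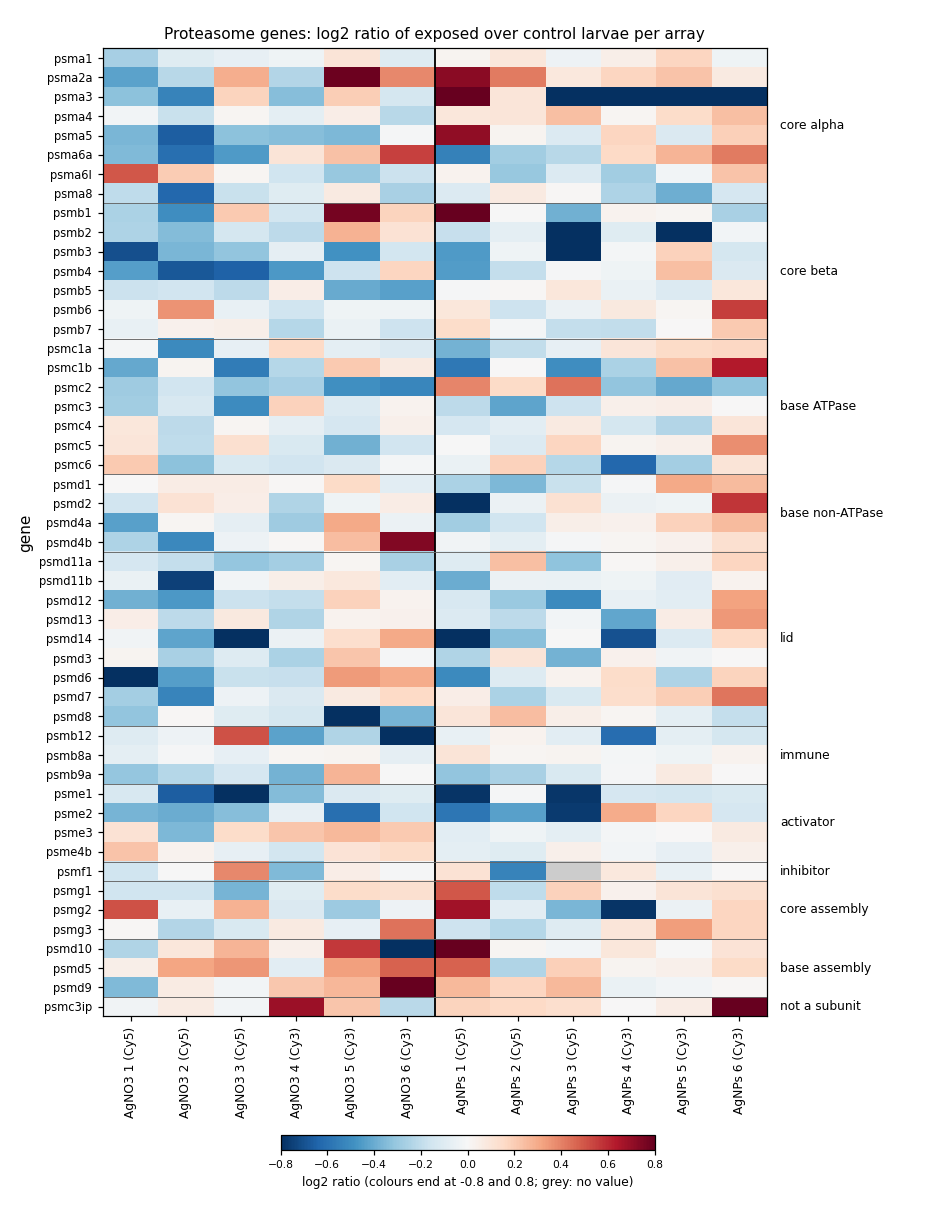
Log2 ratio of exposed over control larvae for each of the 50 tested proteasome genes (down the page, by role) on each of the 12 arrays (across, AgNO3 left of AgNPs, with the dye of the exposed RNA). Blue is below 0 and red above; blue prevails among core, base and lid genes on AgNO3 replicates 1 to 4, and red on AgNPs replicate 6.

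Among the core genes, 6 of 8 alpha subunits (median -0.082) and 5 of 7 beta subunits (median -0.093) had estimates below 0 in AgNO3, and 6 and 4 did with the dye-swapped arrays turned. The alpha subunit gene psma5, part of the ring that gates the barrel, had log2 ratios of -0.66, -0.35 and -0.01 in AgNO3 larvae (lowest, median and highest of 6), against -0.11, 0.10 and 0.71 in AgNPs larvae. All 6 AgNO3 arrays were below 0, and the groups overlapped through AgNPs replicates 3 and 5 and AgNO3 replicate 6. Its estimate was -0.34 (SE 0.11, adjusted p = 0.463), and -0.11 with the swapped arrays turned, and its 2 probes averaged -0.36 and -0.33. The structural beta subunit gene psmb4 had -0.68, -0.45 and 0.17 in AgNO3 larvae, against -0.44, -0.07 and 0.24 in AgNPs larvae, so the groups overlapped. Its estimate was -0.37 (SE 0.09, adjusted p = 0.317), with AgNO3 replicate 6 the 1 array above 0, and its 4 probes averaged between -0.89 and -0.05. With the swapped arrays turned it was -0.22.

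The gene of the chymotrypsin-like cutting subunit, psmb5, had -0.43, -0.19 and 0.05 in AgNO3 larvae, against -0.11, 0.0018 and 0.09 in AgNPs larvae. It was below 0 on 5 of 6 AgNO3 arrays (estimate -0.22, SE 0.06, adjusted p = 0.428), but its 3 probes averaged between -0.36 and 0.03. The other cutting subunits lay closer to 0, psmb6 (caspase-like) at 0.01 and psmb7 (trypsin-like) at -0.07. The alpha subunit gene psma8 had an estimate of -0.22 in AgNO3 (limma adjusted p = 0.565), and -0.12 with the swapped arrays turned. Its probes averaged between -0.42 and 0.03. The beta subunit gene psmb3 was below 0 on 6 of 6 AgNO3 arrays, between -0.70 and -0.07, yet its limma adjusted p was 0.829, and its estimate of -0.35 was -0.11 with the swapped arrays turned. The model shares 1 spread between the groups, and AgNPs replicate 3 stood at -3.99 for this gene.

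In the base, 7 of 7 ATPase genes had estimates below 0 in AgNO3 (median -0.11), against 6 of 7 in AgNPs (median -0.070). These counts were 3 of 7 in AgNO3 (median 0.0083) and 4 of 7 in AgNPs with the dye-swapped arrays turned. With arrays scaled to a common spread they were 7 of 7 in AgNO3 (median -0.104) and 5 of 7 in AgNPs (median -0.112). The lowest p of all members was that of psmc2, an ATPase of the unfolding ring, with -0.52, -0.30 and -0.15 in AgNO3 larvae, against -0.41, -0.08 and 0.43 in AgNPs larvae. All 6 AgNO3 arrays were below 0, whereas the AgNPs arrays split by dye: those with exposed RNA in Cy5 lay between 0.16 and 0.43, those in Cy3 between -0.41 and -0.31. The estimate in AgNO3 was -0.34 (SE 0.08, adjusted p = 0.288), and 0.088 with the swapped arrays turned, and its 2 probes averaged -0.61 and -0.07. The probe at -0.61 was below 0 on all 6 AgNO3 arrays and split by dye in AgNPs. The other probe was above 0 on AgNO3 replicates 1 and 6 and did not split by dye in AgNPs. The ATPase gene psmc3 stood at -0.13 in AgNO3 (adjusted p = 0.596) and -0.12 in AgNPs. The 4 other base genes, the scaffolds psmd1 and psmd2 and the ubiquitin receptor copies psmd4a and psmd4b, lay between -0.09 and 0.03 in AgNO3, 2 of them below 0.

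In the lid, 9 of 9 genes had estimates below 0 in AgNO3 (median -0.14), against 6 of 9 in AgNPs (median -0.084). Turning the dye-swapped arrays left 7 of 9 below 0 in AgNO3 (median -0.15) and put 8 of 9 below 0 in AgNPs. Scaled to a common spread, 9 of 9 were below 0 in AgNO3 (median -0.11) and 8 of 9 in AgNPs (median -0.074). The lid gene psmd8 had -0.94, -0.23 and 0.01 in AgNO3 larvae, against -0.19, 0.03 and 0.24 in AgNPs larvae. AgNO3 replicate 5 stood far below the others, and the groups overlapped. Its estimate was -0.31 (SE 0.09, adjusted p = 0.443), and -0.20 without AgNO3 replicate 5, the array at -0.94, or 0.17 with the swapped arrays turned. The gene psmd11a, of a lid scaffold subunit, had -0.31, -0.22 and 0.02 in AgNO3 larvae, against -0.32, 0.02 and 0.24 in AgNPs larvae (estimate in AgNO3 -0.19, SE 0.07, adjusted p = 0.542, and -0.021 with the swapped arrays turned). Its paralog psmd11b stood at -0.13 in AgNO3 and -0.10 in AgNPs. The lid gene psmd14, which encodes the enzyme that cuts ubiquitin from substrates, stood at -0.14 (adjusted p = 0.791) in AgNO3.

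The interferon-inducible pair psme1 and psme2, whose products form 1 ring, had the same sign in both silver forms. Each control sample served 1 array of each form, so the forms are not independent readings. The part of the shared controls in the shared sign was not tested. The share of all features below 0 on 12 of 12 arrays was not counted. For psme1 the ratios were -0.92, -0.24 and -0.09 in AgNO3 larvae and -0.78, -0.14 and -0.01 in AgNPs larvae, below 0 on 12 of 12 arrays. Its estimates were -0.38 (SE 0.11, adjusted p = 0.455) in AgNO3 and -0.33 (SE 0.11) in AgNPs, and both probes averaged below 0 in each group. The sign on 12 of 12 arrays held for the average of these probes alone. A probe was above 0 on AgNO3 replicate 1 and AgNPs replicate 2. The other was above 0 on AgNO3 replicates 5 and 6 and AgNPs replicate 4. For psme2 the ratios were -0.60, -0.36 and -0.07 in AgNO3 larvae, all below 0, and -0.77, -0.29 and 0.30 in AgNPs larvae, 4 of 6 below 0. Its estimates were -0.32 (SE 0.10, adjusted p = 0.475) and -0.24 (SE 0.10); in AgNPs the arrays with exposed RNA in Cy5 lay between -0.77 and -0.44 and those in Cy3 between -0.13 and 0.30. Neither gene passed the adjustment in either comparison (adjusted p 0.455 and above). Turning the dye-swapped arrays gave psme1 estimates of -0.19 in AgNO3 and -0.20 in AgNPs, and psme2 estimates of -0.047 in AgNO3 and -0.35 in AgNPs. So turned, psme1 was below 0 on every Cy5 array and above 0 on every Cy3 array. That follows from turning alone, as it was below 0 on all arrays as deposited, and tells nothing of the dye. As deposited, its Cy5 and Cy3 means were -0.57 and -0.19 in AgNO3, and -0.52 and -0.13 in AgNPs. The part of the dye in these values was not tested.

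The other activators had estimates closer to 0 than psme1 and psme2. The nuclear activator gene psme3 had -0.36, 0.18 and 0.26 in AgNO3 larvae, above 0 on 5 of 6 arrays. Its estimate was 0.10 (SE 0.06, adjusted p = 0.675), and -0.13 with the dye-swapped arrays turned. In AgNPs larvae it had -0.09, -0.02 and 0.07 (estimate -0.02). Its difference AgNO3 minus AgNPs was 0.12 (limma adjusted p = 0.858). That was 0.21 without AgNO3 replicate 2, the array at -0.36 (limma adjusted p = 0.821), and -0.087 with the swapped arrays turned. The gene psme4b, of an activator linked to acetylated histones in mammals, had -0.15, 0.07 and 0.23 in AgNO3 larvae (estimate 0.05, SE 0.05, adjusted p = 0.808) and -0.10, -0.04 and 0.04 in AgNPs larvae (estimate -0.03). The inhibitor gene psmf1 stood at -0.02 in AgNO3 and -0.08 in AgNPs.

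Estimates of the 3 tested immune beta subunits lay between -0.22 and -0.03 in AgNO3 and between -0.16 and 0.02 in AgNPs. Probes of different genes, in other roles too, at times held the same ratio on an array. Small values may thus not all be measured signal. They may enter the counts below 0 of members and of all features, which was not tested. On AgNPs replicate 4, probes of psmb9a, psmc1a, psmc3, psmc4 and psmd4b all held -0.0093, which was also the median of all tested features there. On AgNO3 replicate 6, probes of psmb8a, psmb11b and psmc5 all held -0.0123. Of the 3 tested, 3 were below 0 in AgNO3 (median -0.13) and 2 in AgNPs (median -0.10), and with the dye-swapped arrays turned 2 and 1 were. The gene psmb8a, counterpart of the chymotrypsin-like immune subunit, had -0.08, -0.04 and 0.02 in AgNO3 larvae (estimate -0.03, SE 0.04, adjusted p = 0.834) and -0.03, 0.02 and 0.10 in AgNPs larvae (estimate 0.02). The gene psmb9a, of the immune counterpart of Psmb6, had -0.38, -0.18 and 0.27 in AgNO3 larvae (estimate -0.13, SE 0.07, adjusted p = 0.647, and -0.05 without AgNO3 replicate 4) and -0.32, -0.06 and 0.07 in AgNPs larvae (estimate -0.10). The gene psmb12, listed under the older symbol psmb11, had -1.05, -0.17 and 0.51 in AgNO3 larvae (estimate -0.22, SE 0.12, adjusted p = 0.646, and -0.09 without AgNO3 replicate 6 or 0.35 with the swapped arrays turned) and -0.61, -0.08 and 0.03 in AgNPs larvae (estimate -0.16). Its probes had both signs in both groups. In the current RefSeq annotation psmb8a, psmb9a, psmb12 and psmb13a lie within 3 coding genes of each other. The gene that RefSeq now calls psmb10 is on the array under a clone name, so it lies outside the rule. It had -0.59, -0.34 and -0.15 in AgNO3 larvae (estimate -0.34, SE 0.12, adjusted p = 0.513, 6 of 6 below 0) and -0.72, -0.21 and 0.26 in AgNPs larvae (estimate -0.20, and -0.075 without AgNPs replicate 2). Its estimates with the dye-swapped arrays turned were 0.0013 in AgNO3 and 0.10 in AgNPs. Of 3 further proteasome genes under older names, psma2b and psma6b stood at -0.07 and -0.06 in AgNO3 and -0.05 and -0.13 in AgNPs, and psmb11a, which neighbours psmb5, at 0.0046 in AgNO3 and -0.23 in AgNPs. In AgNPs, psma6b stood at 0.047 without AgNPs replicate 1 and -0.23 without AgNPs replicate 6, and psmb11a at -0.076 without AgNPs replicate 5.

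Of the 6 assembly factors, which help build the particle and then leave it, 2 were below 0 in AgNO3 and 1 in AgNPs, and with the dye-swapped arrays turned 4 and 1 were. The base chaperone gene psmd5 had -0.08, 0.32 and 0.48 in AgNO3 larvae (estimate 0.24, SE 0.09, adjusted p = 0.550, above 0 on 5 of 6 arrays, and -0.000406 with the swapped arrays turned) and -0.24, 0.10 and 0.47 in AgNPs larvae (estimate 0.11, and 0.03 without AgNPs replicate 1 or 0.19 without AgNPs replicate 2). Its 2 probes averaged -0.00135 and 0.48 in AgNO3. The base chaperone gene psmd9 had -0.35, 0.14 and 0.89 in AgNO3 larvae (estimate 0.18, SE 0.12, adjusted p = 0.681). That estimate was 0.04 without AgNO3 replicate 6, 0.28 without AgNO3 replicate 1 and -0.28 with the swapped arrays turned. In AgNPs larvae psmd9 had -0.05, 0.09 and 0.26 (estimate 0.10, and 0.05 without AgNPs replicate 1 or 3). The third, psmd10 (gankyrin), had -0.92, 0.07 and 0.57 in AgNO3 larvae (estimate -0.03, adjusted p = 0.982) and -0.02, 0.05 and 0.87 in AgNPs larvae (estimate 0.18, and 0.04 without AgNPs replicate 1).

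The core chaperones stood close to 0. The gene psmg1 had -0.37, -0.13 and 0.14 in AgNO3 larvae (estimate -0.09, SE 0.09, adjusted p = 0.780) and -0.20, 0.12 and 0.50 in AgNPs larvae (estimate 0.12, and 0.03 without AgNPs replicate 1). Its partner psmg2 had -0.29, -0.05 and 0.51 in AgNO3 larvae (estimate 0.05, adjusted p = 0.958) and -0.78, -0.07 and 0.67 in AgNPs larvae (estimate -0.07), with probes of both signs. The third, psmg3, had -0.24, -0.03 and 0.43 in AgNO3 larvae (estimate 0.02, adjusted p = 0.975) and -0.23, -0.00245 and 0.33 in AgNPs larvae (estimate 0.02).

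The lower values in AgNO3 were not equal on all arrays. The share of members below 0 was 76.0%, 74.0%, 66.0% and 74.0% on AgNO3 replicates 1 to 4, 40.0% on replicate 5 and 58.0% on replicate 6. On the AgNPs arrays it was 60%, 64.0% and 65.3% on replicates 1 to 3, 52.0% and 48.0% on replicates 4 and 5, and 24.0% on replicate 6. Over all features the share lay between 42.5% and 56.5% on any array. Repeated small values, as given above for some probes, may enter these shares, which was not tested. The members' median was below 0 on 5 of 6 AgNO3 arrays (-0.21 to 0.061) and on 4 of 6 AgNPs arrays (-0.070 to 0.10). In both groups the arrays with exposed RNA in Cy5 had the larger shares, apart from AgNO3 replicate 4, and the part of the dye in this was not tested beyond the dye term of the model.

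**Figure D2:**
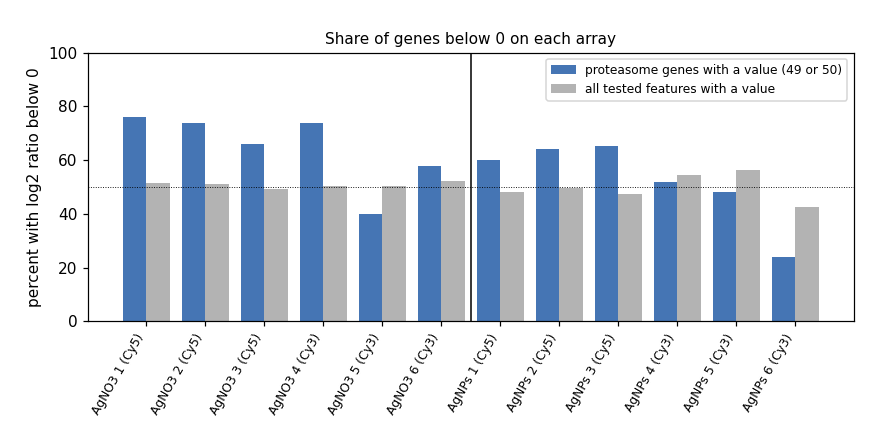
Percent of the tested proteasome genes with a log2 ratio below 0 on each array, beside the same percent over all tested features, AgNO3 left of AgNPs. AgNO3 replicates 1 to 4 lie between 66.0% and 76.0%, and AgNPs replicate 6 at 24.0%.

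In AgNPs larvae, 30 of 50 members (60%) had an estimate below 0, with a median of -0.035, against 48.3% of all features and a median of 0.0028. Again 0 members passed the adjustment in limma (adjusted p = 0.9999 for each), against 0.0237% of all features, 6 in number. At an unadjusted p under 0.05, 4 members were lower (8.0%, against 2.19% of all features), psmb2, psmd14, psme1 and psme2, and 1 was higher (2.0%, against 2.05%), psma4. The count of lower members was 2 of 50 without AgNPs replicate 1 (against 2.06% of all features) or replicate 5 (against 1.67%). It was 1 of 50 without AgNPs replicate 3 (against 2.66% of all features). Without replicates 3 to 6 it was 2 of 50 (against 2.94% of all features), with 28 of 50 members below 0 (against 49.2%). Turning the dye-swapped arrays made it 8 of 50, against 2.8% of all features. Members below 0 on all 6 arrays were psmb2 and psme1 (4.0%, against 2.6%). Those above 0 on all 6 were psma2a, psma4 and psmc3ip (6.0%, against 2.7%). With the dye-swapped arrays turned, 31 of 50 members had an estimate below 0, against 47.2% of all features. So turned, psma6a, psmc1a, psmc3, psmd4b and psmg3 were below 0 on all 6 arrays (10%, against 2.85%). Above 0 on all 6 was then psmc2 (2.0%, against 4.01%).

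The alpha subunit gene psma4 had 0.01, 0.12 and 0.24 in AgNPs larvae, all above 0 (estimate 0.14, SE 0.05, and 0.0039 with the dye-swapped arrays turned), against -0.22, -0.05 and 0.05 in AgNO3 larvae (estimate -0.07). Its 2 probes averaged 0.06 and 0.21 in AgNPs and -0.21 and 0.07 in AgNO3. Each probe alone was below 0 on some AgNPs arrays, down to -0.13 and -0.41, so the shared sign held for their average. The beta subunit gene psmb2 had -1.64, -0.14 and -0.02 in AgNPs larvae (estimate -0.47, SE 0.19), and without AgNPs replicate 5 its estimate was -0.21. For psmd14 the ratios were -1.02, -0.22 and 0.16 (estimate -0.33, SE 0.15, and -0.21 without AgNPs replicate 4 or -0.12 with the swapped arrays turned). Both estimates were therefore smaller with 1 array left out.

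Next in order of p came psma3, with -1.23, -0.85 and 1.06 (estimate -0.49, SE 0.24, and -0.78 without AgNPs replicate 1). Its values lay between -1.23 and -0.80 on replicates 3 to 6, and above 0 on replicates 1 and 2. The remaining pair were psmc3ip, with 0.01, 0.15 and 1.29 (estimate 0.30, SE 0.16, and 0.11 without AgNPs replicate 6), and the base ATPase gene psmc3, with -0.42, -0.08 and 0.05 (SE 0.06). With the dye-swapped arrays turned, the estimates of psma3 (0.61), psmb2 (0.11) and psmc3ip (-0.15) changed sign.

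**Figure D3:**
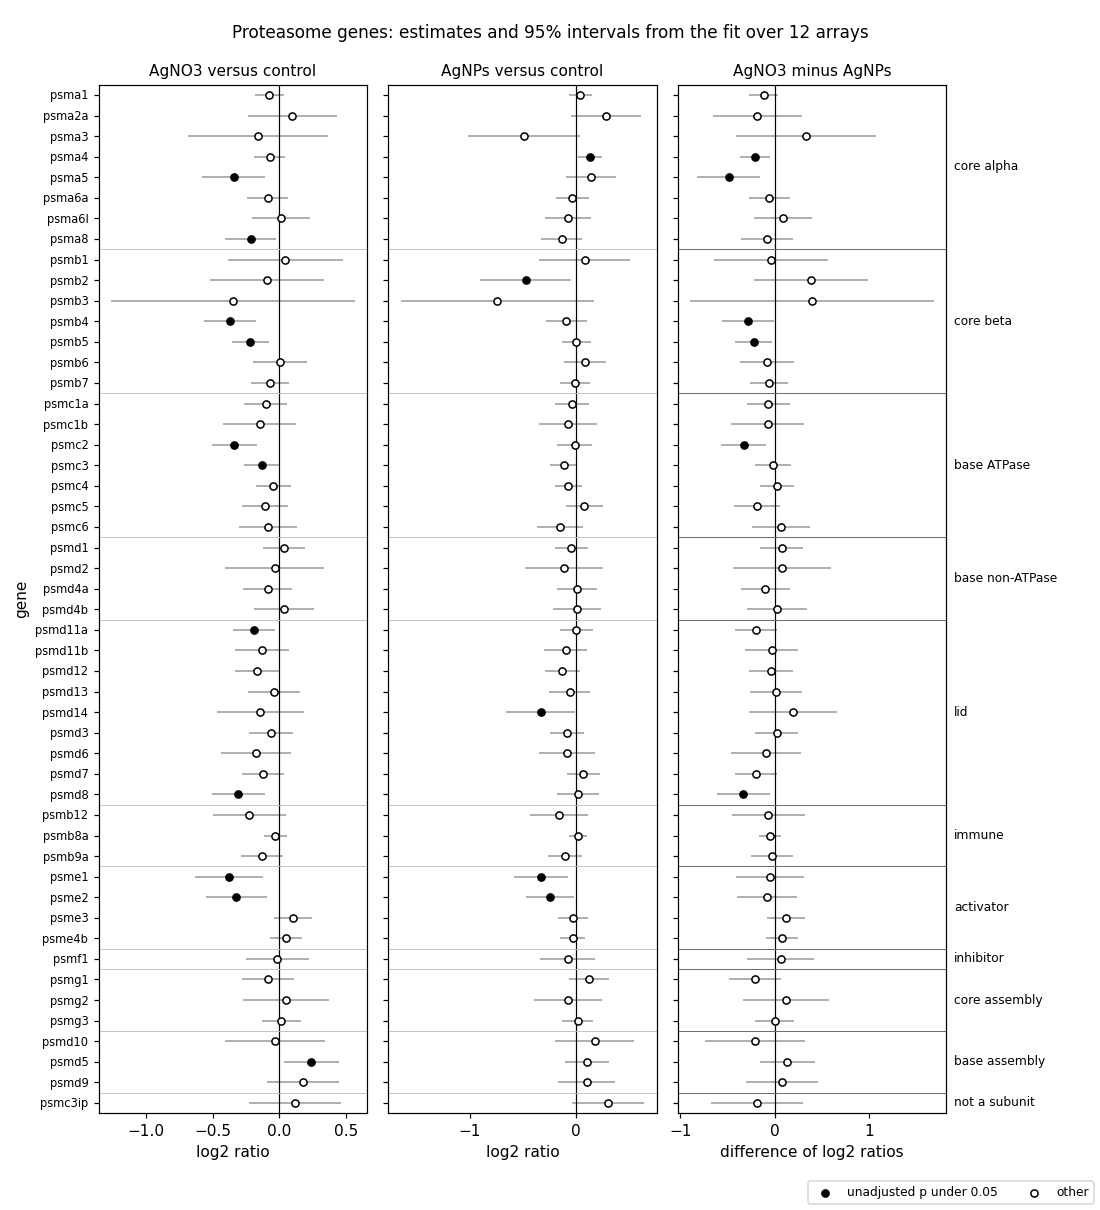
Estimates (points) and 95% intervals (lines) from the fit for each of the 50 members, by role, on the log2 scale: AgNO3 versus control, AgNPs versus control, and the difference AgNO3 minus AgNPs; horizontal scales differ between panels. Filled points have an unadjusted p under 0.05 and none passed the adjustment; with arrays as deposited, lid and ATPase genes lie left of 0 in AgNO3, and assembly factors mostly right of it.

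Both silver forms were compared directly as AgNO3 minus AgNPs. The difference was below 0 for 32 of 50 members (64.0%), with a median of -0.050, against 51.8% of all features and a median of -0.0075. In limma 0 members passed the adjustment (smallest adjusted p = 0.858), and 0.0% of all features did. At an unadjusted p under 0.05, 6 members were lower in AgNO3 (12%, against 2.57%), and 0 higher (against 1.65%). With the dye-swapped arrays turned, the difference was below 0 for 23 of 50 members, with a median of 0.0085, against 50.7% of all features. At that p 3 of 50 were then lower (against 2.07% of all features) and 3 of 50 higher (against 2.09%). With arrays scaled to a common spread, it was below 0 for 25 of 50, with a median of -0.0022, against 51.4% of all features. At that p 2 of 50 were then lower (against 2.26% of all features) and 1 of 50 higher (against 1.65%). The count below 0 thus lay near that of all features under both settings. For 0 members did the AgNO3 arrays lie entirely below or above the AgNPs arrays, against 0.297% and 0.214% of all features.

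The 6 members with an unadjusted p under 0.05 came from the core, the base and the lid. For psma5 the difference was -0.49 (95% interval -0.82 to -0.15) and for psmc2 -0.33 (-0.56 to -0.09). For psma4 it was -0.21 (-0.37 to -0.05), for psmd8 -0.33 (-0.61 to -0.05) and for psmb5 -0.22 (-0.42 to -0.03). The last of the 6, psmb4, stood at -0.28 (-0.55 to -0.01). With the dye-swapped arrays turned, psma4 (0.0045), psmb5 (0.013) and psmd8 (0.067) changed sign, as did psmb4 (0.014) with 1 probe per gene. So turned, the difference was -0.17 for psma5, -0.25 for psmc2 and -0.097 for psmb4. Next by p came psmd11a at -0.20 (-0.42 to 0.02) and the lid gene psmd7 at -0.19 (-0.42 to 0.03), which had -0.53, -0.08 and 0.16 in AgNO3 larvae (estimate -0.12, SE 0.07), against -0.25, 0.09 and 0.43 in AgNPs larvae (estimate 0.07).

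By role, the difference was below 0 for 6 of 8 alpha subunits, 5 of 7 beta subunits, 5 of 7 base ATPases and 6 of 9 lid genes, but for 1 of 4 other base genes. It was below 0 for 3 of 3 immune subunits (-0.07 to -0.03), 2 of 4 activators and 3 of 6 assembly factors. Turning the dye-swapped arrays gave 6 of 8 alpha subunits, 3 of 7 beta subunits, 4 of 7 base ATPases, 3 of 9 lid genes and 1 of 4 other base genes below 0. It gave 1 of 3 immune subunits, 1 of 4 activators and 4 of 6 assembly factors. Scaling the arrays to a common spread gave 5 of 8 alpha subunits, 4 of 7 beta subunits, 4 of 7 base ATPases and 4 of 9 lid genes. It gave 3 of 4 other base genes, 1 of 3 immune subunits, 0 of 4 activators and 3 of 6 assembly factors. For psme1 the difference was -0.05 (-0.40 to 0.31) and for psme2 -0.08 (-0.40 to 0.24), intervals that leave room for a difference in either direction. They were 0.0043 for psme1 and 0.31 for psme2 with the dye-swapped arrays turned.

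**Figure D4:**
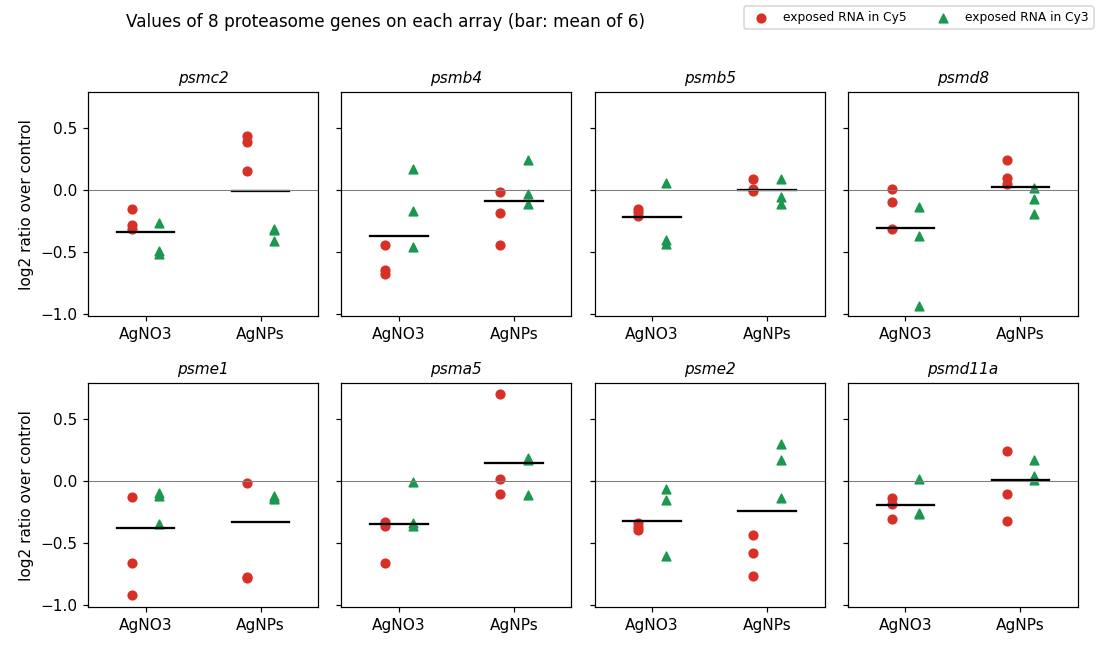
Log2 ratio of exposed over control larvae on each array for 8 members, AgNO3 left of AgNPs, with the dye of the exposed RNA marked; bars give group means. The AgNO3 arrays of psmc2 and psma5 all lie below 0, and those of the AgNPs group lie on both sides of it, while psme1 lies below 0 on all 12 arrays. Values are averages over a gene's probes, and single probes of psmc2, psma5 and psme1 lay above 0 on some AgNO3 arrays.

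Values of some members differed by dye orientation. As the direction of the swapped arrays is not settled, an effect of the dye and an effect of exposure cannot be told apart here. The alpha subunit gene psma6a and the ubiquitin receptor gene psmd4b were below 0 on all 6 arrays with exposed RNA in Cy5 and above 0 on all 6 in Cy3 (4.0% of members, against 0.435% of all features). For psmd4b this pattern held for the average of its 2 probes, which alone stood at 0.35 on AgNPs replicate 1 and 0.013 on AgNPs replicate 3, both Cy5. The opposite pattern was held by 0 members, against 0.55%. Within AgNPs, the Cy5 arrays lay entirely below the Cy3 arrays for 11 members (22%, against 8.28%) and entirely above for 5 (10%, against 10.8%), among them psmc2 (though not in both of its probes), psmd8 and psma3. Within AgNO3 these counts were 6 (12%, against 9.02%) and 2 (4.0%, against 10.5%).

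Genes that work with the proteasome gave the following counts, 0 of them past the adjustment. Beside these and the lists that follow, 51.8% of all features were below 0 in AgNO3 and 48.3% in AgNPs. With the dye-swapped arrays turned these shares were 48.0% and 47.2%. Some lists lay near them, and none was tested as a set. Of enzymes and proteins that make or carry ubiquitin, 2 of 3 free ubiquitin and E1 genes, 15 of 26 E2 genes and 8 of 12 shuttle and Vcp genes were below 0 in AgNO3, against 1, 16 and 7 in AgNPs. The counts were 1, 15 and 6 in AgNO3 and 1, 18 and 6 in AgNPs with the dye-swapped arrays turned. The E1 enzyme gene uba1, which activates ubiquitin, stood at -0.09 in AgNO3 and 0.04 in AgNPs, and the ubiquitin genes ubb and rps27a lay between -0.04 and 0.07 in both. Of the E2 genes, ube2d4 stood at 0.24 in AgNO3 (6 of 6 above 0) and 0.20 in AgNPs, ube2l3a at -0.16 and -0.07, ube2d2 at 0.05 and -0.34, and ube2na at -0.08 and 0.21. The ATPase vcp, which extracts proteins from membranes and complexes, stood at -0.44 in AgNO3 (SE 0.16, adjusted p = 0.544, 4 of 6 arrays below 0, and -0.28 without AgNO3 replicate 6) and at -0.04 in AgNPs. The shuttle gene ubqln4 stood at -0.23 in AgNO3 (adjusted p = 0.455, 6 of 6) and -0.18 in AgNPs (5 of 6), and the shuttle gene rad23ab at 0.03 in AgNO3 and 0.70 in AgNPs (adjusted p = 0.701, 5 of 6 above 0, highest array 2.31, and 0.43 without AgNPs replicate 3). The Vcp cofactor gene faf2 stood at -0.19 in AgNO3 (-0.29 without AgNO3 replicate 5) and -0.52 in AgNPs, and ube2d4 in AgNPs at 0.12 without AgNPs replicate 6. Among the estimates that changed sign with those arrays turned were ubqln4 (0.011) and vcp (0.16) in AgNO3, and ube2d4 (-0.13), ube2na (-0.26), ubqln4 (0.059) and faf2 (0.47) in AgNPs.

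Of other proteasome-bound proteins, 9 of 12 were below 0 in AgNO3 and 9 of 12 in AgNPs. The thioredoxin-like lid partner txnl1 stood at -0.44 in AgNO3 (SE 0.11, adjusted p = 0.337, 6 of 6 below 0) and at 0.01 in AgNPs, a difference of -0.45. The zinc finger genes zfand5b and zfand5a, which bind the proteasome, stood at -0.15 and -0.08 in AgNO3 and at -0.01 and -0.29 in AgNPs. The nuclear import factor of the proteasome, akirin2, stood at -0.21 in AgNO3 (adjusted p = 0.624) and -0.22 in AgNPs (-0.14 without AgNPs replicate 6). Of Nrf1, Nrf2 and their partners, 6 of 8 were below 0 in AgNO3 and 4 of 8 in AgNPs, 0 of them at an unadjusted p under 0.05. The repressor gene bach1a stood at -0.28 in AgNO3 (between -0.42 and -0.096 with 1 AgNO3 array left out) and 0.01 in AgNPs. The gene maff, of a small Maf partner protein, stood at -0.57 in AgNO3, with 1 array at -3.77 and 3 of 6 below 0, and at 0.058 without that array, AgNO3 replicate 4. It stood at 0.10 in AgNPs, and mafgb, of another, at -0.05 in AgNO3 and 0.10 in AgNPs. The Nrf2 gene nfe2l2a stood at -0.12 in AgNO3 (between -0.23 and 0.011 with 1 AgNO3 array left out) and -0.17 in AgNPs (-0.27 to -0.067). Turning the dye-swapped arrays put 10 of 12 proteasome-bound proteins and 3 of 8 of the Nrf1 and Nrf2 list below 0 in AgNO3, against 7 and 4 in AgNPs. Among the estimates that then changed sign were txnl1 (0.020), bach1a (0.27) and maff (0.69) in AgNO3, and akirin2 (0.034) and nfe2l2a (0.17) in AgNPs.

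Class I antigen presentation genes, which take up proteasome products, were below 0 for 7 of 10 in AgNO3 and 9 of 10 in AgNPs. The peptide-loading gene tapbp.1 stood at -0.30 in AgNO3 (SE 0.08, adjusted p = 0.382, 6 of 6 below 0) and -0.09 in AgNPs. The class I light chain b2m stood at -0.41 in AgNO3 (adjusted p = 0.424, 5 of 6) and -0.35 in AgNPs (adjusted p = 0.947, 6 of 6), and its relative b2ml at -0.25 (adjusted p = 0.468) and -0.18. The class I chain gene mhc1uka stood at -0.23 in AgNO3 and -0.01 in AgNPs. The count was 4 of 10 in AgNO3 and in AgNPs with the dye-swapped arrays turned, and estimates that changed sign included tapbp.1 in AgNO3 (0.065) and b2m in AgNO3 (0.22) and AgNPs (0.13). Interferon regulators were below 0 for 4 of 7 in AgNO3 and 6 of 7 in AgNPs, counts that were the same with the dye-swapped arrays turned. Among them irf8, also a macrophage factor, stood at -0.45 in AgNO3, with 1 array at -1.48, and at -0.29 without that array, AgNO3 replicate 3. It stood at -0.27 in AgNPs, between -0.41 and -0.16 with 1 AgNPs array left out. The signalling kinase jak1 stood at -0.04 in AgNO3 and -0.08 in AgNPs, and irf9 at 0.03 and -0.23. The receptor gene ifngr1l stood at 0.07 in AgNO3 and -0.69 in AgNPs, where 3 of 6 arrays were below 0 and 1 was at -2.59. Without that array, AgNPs replicate 5, it stood at -0.35 in AgNPs, and at 0.70 with the swapped arrays turned.

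Of leukocyte markers, 12 of 13 were below 0 in AgNO3 (median -0.061), against 4 of 13 in AgNPs (median 0.046), and 10 and 5 with the dye-swapped arrays turned. The macrophage gene mpeg1.1 had -0.59, -0.46 and -0.20 in AgNO3 larvae (estimate -0.42, adjusted p = 0.259) and -0.12, -0.06 and 0.50 in AgNPs larvae (estimate 0.03). With the swapped arrays turned its estimate in AgNO3 was -0.047. The neutrophil peroxidase gene mpx stood at -0.52 in AgNO3, with 1 array at -2.58, and at -0.11 without that array, AgNO3 replicate 1. It stood at -0.03 in AgNPs. The leukocyte actin regulator coro1a stood at -0.06 in AgNO3 and 0.15 in AgNPs, and the T cell kinase zap70 at -0.08 in AgNO3 and 0.14 in AgNPs (0.071 without AgNPs replicate 2). As ratios carry no level, which markers had a signal near background is unknown. The part of leukocytes in the values of psme1, psme2, the immune subunits and class I genes was not tested.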

How the data were processed

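The deposited values are log ratios of the 2 channels per probe, taken here as log2 since the labels do not name the base; the sources used here do not say how the authors corrected background, normalized or removed spots. Array medians lay between -0.0093 and 0.015, and 6.97% to 10.9% of values per array were empty. Intensities were not used, so the number of arrays limits the precision. Names came from the platform annotation, brought up to date with RefSeq (30186 of 43603 probes named), and a gene's probes were averaged. A feature needed values on 2 or more of 3 arrays per dye orientation and group, which left 25264, of which 14329 were named genes. A single limma model (version 3.58.1, R 4.3.3) over the 12 arrays held a mean per exposed group and a dye term. Tests were 2-sided, with Benjamini-Hochberg adjustment over all features and a threshold of 0.05. The fit was tested on simulated data. Members and gene lists were chosen with earlier results of these data known. Full values are given for the 8 members of lowest p in each comparison and for immune, activator and assembly genes; of each other list, the 2 genes of lowest p in a comparison are named. Alternatives covered dye direction and term, scaling, array weights, gaps, probes, spreads, blocks and arrays left out.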

Additional observations from a re-analysis of the deposited data

Results flagged for a closer look

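In 13 of 102 groups of arrays, 1 value stood apart from the others of its group by Dixon's test at the 95% level. The 102 include the members' median in each silver form. Among values of equal spread chance does this in about 1 in 20. The AgNPs arrays differed in spread and genes on 1 array share its RNA, so that rate may not hold here. AgNPs arrays held 10 of the 13 values, and AgNO3 arrays 3. AgNPs replicate 1 stood apart at 0.71 for psma5, 1.099 for psmb1, 0.87 for psmd10, -0.40 for psmd11b and -1.24 for psmd2. AgNPs replicate 6 stood apart at 0.56 for psmb6 and 1.29 for psmc3ip. Other AgNPs values were -0.53 on replicate 2 for psmf1, -3.99 on replicate 3 for psmb3 and -0.61 on replicate 4 for psmb12. AgNO3 replicate 2 stood apart at 0.36 for psmb6, -0.75 for psmd11b and -0.36 for psme3.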

How the results depend on the processing

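Under the alternatives run, 0 members were called. In the difference, the 32 of 50 members below 0 became 23 with dye-swapped arrays turned (median 0.0085) and 25 scaled to a common spread (median -0.0022), near the 50.7% and 51.4% of all features. In AgNO3 the 37 below 0 became 32 turned, and in AgNPs the 30 became 31. The median in AgNPs was 0.00076 with 1 probe per gene. With a random replicate block 37, 30 and 32 members were below 0 in AgNO3, AgNPs and their difference. With a fixed replicate block 33 were in the difference. Residuals of same-numbered arrays correlated between -0.10 and 0.0071. Those of arrays with the same control sample correlated between -0.0067 and 0.048. Values near 0 thus cannot tell whether same-numbered arrays share more than a number. Counts lower at an unadjusted p under 0.05 were less stable. Percents beside these counts are shares of all features. In AgNO3 the 10 became 6 of 50 turned (against 5.38%) and 4 of 50 scaled (2.84%). In AgNPs the 4 became 8 of 50 turned (2.8%) or with array weights (3.59%). It became 2 of 50 without a dye term (1.71%), with 1 probe per gene (2.01%) or without AgNPs replicates 3 to 6 (2.94%). In the difference the 6 became 3 of 50 turned (2.07%), and 2 of 50 scaled (2.26%) or without AgNPs replicates 3 to 6 (3.02%). A gene within 1 SE of 0 was given no direction. For each comparison, signs were checked in the 8 members of lowest p and in immune, activator, inhibitor and assembly genes. The lists that follow cover these alone. Other members also changed sign when turned, among them psmc5 (0.11) and psmb7 (0.079) in AgNO3 and psma8 (0.12) and psmc6 (0.12) in AgNPs. In the difference, psmb2 (-0.26) and psmc5 (0.18) were among them. With the swapped arrays turned, estimates changed sign in AgNO3 for psmb12 (0.35), psmb5 (0.040), psmc2 (0.088), psmd5 (-0.000406), psmd8 (0.17), psmd9 (-0.28) and psme3 (-0.13); in AgNPs for psma3 (0.61), psmb12 (0.12), psmb2 (0.11) and psmc3ip (-0.15); and in the difference for psma4 (0.0045), psmb5 (0.013), psmd11a (0.046), psmd5 (-0.036), psmd7 (0.021), psmd8 (0.067) and psme3 (-0.087). With 1 probe per gene they did for psmg1 in AgNPs (-0.0042) and for psmb4 (0.014) and psmd7 (0.0087) in the difference, and without AgNPs replicates 3 to 6 for psma3 (0.65) and psmb2 (0.023) in AgNPs. The cause was not tested. With 1 array left out, 34 to 39 members were below 0 in AgNO3, 25 to 33 in AgNPs and 28 to 36 in the difference. Medians then lay between -0.11 and -0.060, -0.054 and -0.0016, and -0.074 and -0.019. Few arrays and unknown signal over background limit what small shifts can be seen.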
